A study of Mus musculus with 4 samples.

Results

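Imprinted genes are expressed mainly or only from the allele inherited from one parent, and their activity was compared here between liver progenitor-like cells of different origin. The members were 40 mouse genes known to be imprinted, listed by symbol. The rule uses no measured value, but the list was chosen with earlier results of these data known. Of these, 33 had a row in the deposited tables of 21878 rows, and 24 had enough reads to be tested among 12332 genes. RNA was sequenced from 2 libraries of cells grown out of hepatocytes (HepLPC) and 2 libraries of cells grown out of non-parenchymal liver cells (NPC_LPC). The mice were C57BL/6, aged 6 to 8 weeks by their labels, and both kinds of cell were cultured in media for transition and expansion. The protocol lists tdTomato mice given AAV8-TBG-Cre, a virus that expresses Cre from a hepatocyte promoter, for the hepatocyte preparation. It lists AlbCreERT/R26GFP mice, in which the albumin promoter drives an inducible Cre, for the non-parenchymal one. If the mice were used as listed, origin, mouse line and virus cannot be told apart. Nothing says that the 2 libraries of a group came from separate mice or cultures, so p-values measure only the spread between these libraries. The label of cell type for HepLPC names both kinds of starting cell, and the titles decided the groups.

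Imprinting is set in the germ line, where DNA methylation is laid down on one parental copy of a control region and then kept through cell division. Many imprinted genes act on fetal growth and on the hormone balance between fetus and placenta, and many lie in clusters that share a control region. In liver, several of the fetal growth genes, among them H19, Igf2 and Dlk1, are known for high levels before birth and a sharp decline afterwards. Counts per gene add both alleles together, so none of the values below tells which parental copy was read.

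The stretches before the start sites of Igf2r, Grb10 and Peg3, members with abundant transcripts, differed in CpG content. CpG is the sequence at which methylation marks are placed, and whether these stretches carry an imprint mark is not shown here. All are RefSeq sequences of GRCm38.p6, written 5′ to 3′ in lower case with each CG in capitals. The Igf2r stretch (chr17:12769707-12769956, minus strand) holds 27 CG in 250 bases, the Grb10 stretch (chr11:12037429-12037670, minus strand) 40 CG in 242 bases, and the short gap between Peg3 and Usp29, which are transcribed away from each other (chr7:6730463-6730558, plus strand), 3 CG in 96 bases.
Igf2r: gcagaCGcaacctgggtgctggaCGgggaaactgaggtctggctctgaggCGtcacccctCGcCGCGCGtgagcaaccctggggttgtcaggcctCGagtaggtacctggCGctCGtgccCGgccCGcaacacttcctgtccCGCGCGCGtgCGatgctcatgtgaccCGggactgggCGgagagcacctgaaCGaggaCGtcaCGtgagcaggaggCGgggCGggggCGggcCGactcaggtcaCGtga
Grb10: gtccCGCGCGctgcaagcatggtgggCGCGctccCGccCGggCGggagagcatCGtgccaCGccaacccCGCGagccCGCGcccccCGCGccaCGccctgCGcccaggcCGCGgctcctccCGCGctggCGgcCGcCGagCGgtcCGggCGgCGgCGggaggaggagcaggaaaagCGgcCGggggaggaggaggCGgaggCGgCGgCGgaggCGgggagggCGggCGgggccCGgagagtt
Peg3/Usp29: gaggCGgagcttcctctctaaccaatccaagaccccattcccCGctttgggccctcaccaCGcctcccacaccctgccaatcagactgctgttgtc
Over 32851 windows of 250 bases before annotated starts the median was 6 CG. A window with at least the 40 CG of Grb10 made up 1.31% of them, and one with at least the 27 of Igf2r 8.56%. The full windows of 250 bases hold 8 CG for Peg3 and 14 for Usp29, and overlap at the shared start. RefSeq windows were found for 30 of the 40 members, and the window richest in CG of each had a median of 10 CG. The motif GGGCGG, searched on both strands, was in 16 of these 30 windows and in 32.7% of all windows. Taking the richest of several windows raises both member values. These are descriptions of the reference sequence, since methylation was not measured.

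Each library held between 17575998 and 20625957 counts. Values are given as CPM, the counts scaled to a common library size after TMM normalization, and where a pair of values is given for a group, replicate 1 comes first. At this depth, 3 counts equal 0.149 to 0.169 CPM. Levels of different genes are ranked in FPKM, the authors' values scaled by transcript length. Sums over lists, and the part of a gene in them, are in CPM and are not scaled by length. The group differences rest on edgeR's quasi-likelihood test over all 12332 genes, with Benjamini-Hochberg adjustment and a threshold of 0.05. At that threshold 0.43% of all tested genes were called.

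The edgeR test called 0 of the 24 tested imprinted genes between the origins, while 8 had an unadjusted p under 0.05, 4 higher and 4 lower in HepLPC, where 21.9% of all tested genes did. DESeq2 called 5 members, where it called 12.3% of all genes, and limma-voom called 0. The 5 were Phlda2, Grb10 and Magel2, higher in HepLPC where 5.81% of all genes were, and Igf2r and Peg3, lower in HepLPC where 6.5% were. The list had no common direction. Fitted log2 fold changes, HepLPC over NPC_LPC, were above 0 for 13 members and below 0 for 11, with a median of 0.01 beside -0.003 over all tested genes. In 14 of the 24 the groups did not overlap, 6 higher in HepLPC and 8 lower, where 56.4% of all tested genes did not overlap, 27.9% higher and 28.6% lower. Of the members expressed from the paternal allele 8 had a fold change above 0 and 5 below, and of those expressed from the maternal allele, in some cases only in part of the tissues, 5 were above and 5 below. The remaining tested member, Gnas, gives transcripts of both kinds. In bulk RNA, fewer cells that express a gene and less RNA per cell cannot be told apart. No exact permutation test was run gene by gene, since 2 libraries against 2 allow no p under 0.333.

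**Figure D1:**
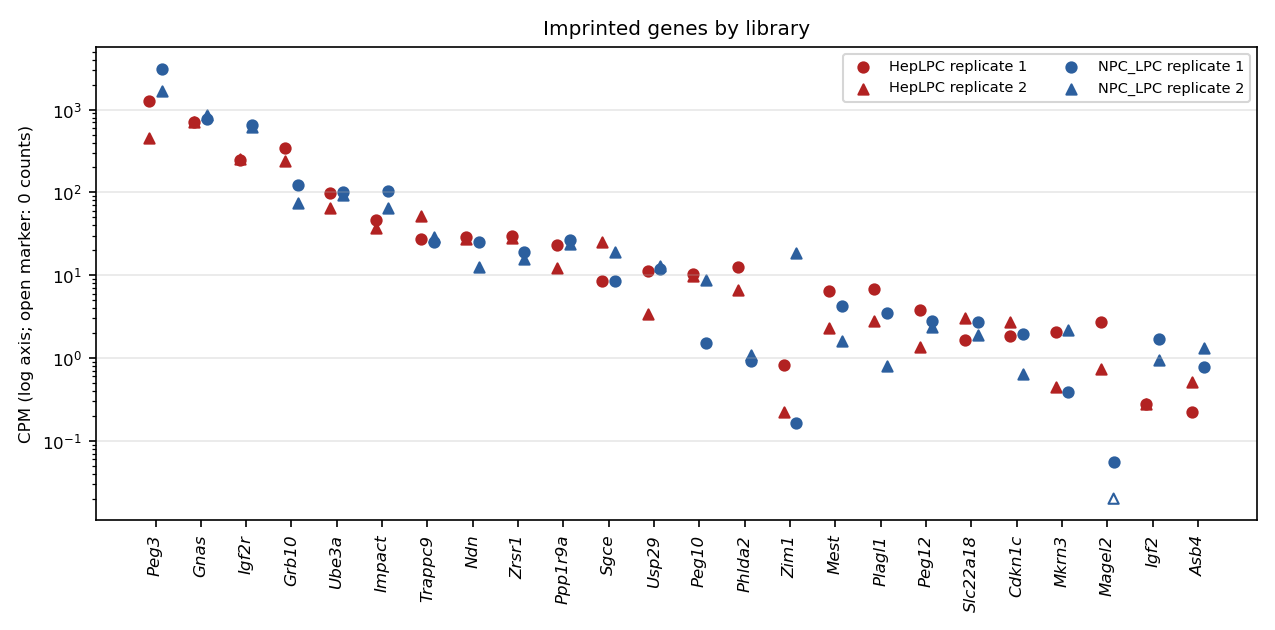
CPM (log axis) of the 24 tested imprinted genes in each of the 4 libraries, ordered by mean level; circles are replicate 1 and triangles replicate 2 of HepLPC (red) and NPC_LPC (blue), and the open marker is a library with 0 counts. Peg3 and Igf2r are lower in both HepLPC libraries, Grb10 and Phlda2 higher, and Zim1 is high in 1 NPC_LPC library only.

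Levels spanned several orders of magnitude, and a few genes carried most of the reads. Per transcript length, Peg3 had the highest mean FPKM over the 4 libraries, 79.3, and was in place 708 of the 21878 rows. Gnas followed at 54.4, Igf2r at 38.1, Grb10 at 29.4, Ndn at 17.1, Ube3a at 13.6 and Impact at 11.3 FPKM. Below these, Phlda2 averaged 6.35 FPKM, Trappc9 3.27, Sgce 3.11, and the remaining 23 members with a row were under 2 FPKM. Peg3 gave 44.0% and 23.5% of the summed CPM of the members in HepLPC replicates 1 and 2 and 62.5% and 47.2% in those of NPC_LPC. The members summed to 2890 and 1926 CPM in HepLPC and to 5018 and 3521 CPM in NPC_LPC. Without Peg3 the sums were 1620 and 1473 CPM against 1883 and 1859 CPM.

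Of the best known imprinted ligand and receptor, the ligand had few reads while the receptor was abundant. Igf2, the fetal insulin-like growth factor (chromosome 7, 142650768 to 142666816 in GRCm38, the build of each position given here), had 5 and 5 counts in HepLPC and 31 and 19 in NPC_LPC, or 0.278 and 0.282 against 1.7 and 0.941 CPM. Both HepLPC libraries lay below both NPC_LPC libraries, and the edgeR test did not call the difference (log2 fold change of -2.21 with SE 0.83, adjusted p = 0.205). Igf2r (chromosome 17, 12682406 to 12769706), a receptor that carries IGF2 and lysosomal enzymes into lysosomes, reached 246 and 252 CPM in HepLPC against 643 and 620 CPM in NPC_LPC. The groups were far apart and the replicates close together, with means of 249 ± 4.5 and 632 ± 16.1 CPM (SD, n = 2 each). Igf2r was thus 2.54-fold lower in HepLPC (log2 fold change of -1.34 with SE 0.24, edgeR adjusted p = 0.0763). DESeq2 gave an adjusted p of 4.24e-06 and edgeR without a filter on low counts 0.0352, while leaving out any 1 library gave edgeR values between 0.127 and 0.22 and fold changes between -1.37 and -1.30. The 8 other tested genes within 1 Mb of Igf2r had log2 fold changes from -0.93 to 0.62, with a median of -0.35. Airn, the long non-coding RNA that silences the paternal Igf2r copy in most tissues, and H19, the maternal partner of Igf2, were not analysed here. Of the exon bases of Igf2 in GENCODE M21, 62.8% are shared on the same strand with the predicted gene Gm49394, so its few counts are uncertain. Gm49394 itself has no row. The FPKM of Igf2 was low as well, at 0.029 and 0.031 in HepLPC and 0.179 and 0.088 in NPC_LPC.

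Around these genes the IGF axis was mixed. The list of 18 genes held Igf1, receptors and their substrates, IGF-binding proteins, IGF2 mRNA-binding proteins, and the fetal growth regulators Lin28a, Lin28b and Hmga2. Of these 14 were tested. edgeR called 0, and 6 had an unadjusted p under 0.05, where 21.9% of all tested genes did. DESeq2 called 4 higher in HepLPC, where 5.81% of all genes were, and 2 lower, where 6.5% were. The median log2 fold change was 0.43 beside -0.003 over all tested genes. Igf1, the postnatal ligand, reached 12.7 and 20.0 CPM in HepLPC against 54.6 and 62.5 CPM in NPC_LPC (log2 fold change of -1.84 with SE 0.33, edgeR adjusted p = 0.0763). Igfbp2, an IGF-binding protein, had 4.44 and 2.14 CPM in HepLPC and no count in NPC_LPC, which is at least 21.0-fold higher against a floor of 3 counts per library (edgeR adjusted p = 0.0763). Igfbp3, which encodes another binding protein, reached 203 and 178 CPM in HepLPC against 60.2 and 94.2 CPM in NPC_LPC (log2 fold change of 1.30 with SE 0.30, edgeR adjusted p = 0.099). In each of these 3 genes the groups did not overlap. Over the 14 tested genes, groups without overlap were higher in HepLPC for 8 and lower for 4. Over all tested genes the shares were 27.9% and 28.6%.

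The Peg3 cluster of chromosome 7 held the most abundant member and one that was read almost only in a single library. Peg3 (6703892 to 6730462), a zinc finger protein expressed from the paternal allele, reached 1270 and 453 CPM in HepLPC against 3135 and 1662 CPM in NPC_LPC. Both HepLPC libraries were lower than both NPC_LPC libraries, but within each group the replicates differed widely. Its log2 fold change was -1.48 (SE 0.58, edgeR adjusted p = 0.219; DESeq2 adjusted p = 0.0464), and it ran from -2.39 to -0.92 when 1 library was left out. Usp29, a deubiquitinase gene that starts beside Peg3 on the other strand, reached 11.2 and 3.44 CPM in HepLPC against 11.8 and 13 CPM in NPC_LPC. In HepLPC, replicate 2 was low for both genes of this shared start region, while in NPC_LPC Peg3 was higher in replicate 1 and Usp29 slightly lower. Zim1, a maternally expressed zinc finger gene next to Peg3, had 15 and 4 counts in HepLPC and 3 and 373 counts in NPC_LPC, or 0.833 and 0.225 against 0.165 and 18.5 CPM. That library also had the highest sum of stellate and fibroblast markers, 17.2 CPM against 4.17 to 6.39 CPM in the others. Most of that sum was Col1a1 (11.8 CPM), Des and Rgs5 of the list were lowest there, and the part of such cells was not tested. A single library, NPC_LPC replicate 2, set the direction of the Zim1 log2 fold change of -4.12 (SE 1.88, edgeR adjusted p = 0.27). Without that library the value was 1.65, and without NPC_LPC replicate 1 the value was -5.09 with an adjusted p of 0.0228. The 11 other tested genes within 1 Mb of Peg3 had a median log2 fold change of -0.55.

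In the Kcnq1 cluster on distal chromosome 7, Phlda2 had the largest difference between the origins. Phlda2 (143501545 to 143503145), a maternally expressed gene that restrains placental growth, had 226 and 118 counts in HepLPC and 17 and 22 in NPC_LPC. That is 12.6 and 6.65 CPM against 0.933 and 1.09 CPM, so both HepLPC libraries were well above both NPC_LPC libraries. Phlda2 was 9.50-fold higher in HepLPC by mean CPM (log2 fold change of 3.24 with SE 0.57, edgeR adjusted p = 0.0763; DESeq2 adjusted p = 8.95e-05). Without 1 library at a time the value lay between 2.72 and 3.62, with edgeR adjusted p between 0.107 and 0.237. Cdkn1c, which encodes the cell cycle inhibitor p57, reached 1.83 and 2.7 CPM in HepLPC against 1.97 and 0.644 CPM in NPC_LPC, and the groups overlapped. Slc22a18, a transporter gene that ends beside Phlda2, had overlapping counts of 30 and 54 against 50 and 38 (log2 fold change of 0.03 with SE 0.64). Its FPKM values did not overlap, at 1.26 and 1.9 in HepLPC and 0.823 and 0.88 in NPC_LPC, so the deposited measures differ for this gene. Ascl2, a transcription factor of trophoblast and intestinal stem cells, had 22 and 5 counts in HepLPC and 2 and 3 in NPC_LPC, too few for the test. Kcnq1, a potassium channel gene, had 5 counts in NPC_LPC replicate 1 and none in the other libraries, and its antisense RNA Kcnq1ot1 was not analysed here. The 14 other tested genes within 1 Mb of Phlda2 had log2 fold changes from -1.42 to 2.29 with a median of -0.38.

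Grb10 was higher in HepLPC together with genes on both sides of it. Grb10 (chromosome 11, 11930499 to 12037428), an adaptor protein that dampens insulin and IGF receptor signalling and is expressed from the maternal allele in most tissues, reached 346 and 239 CPM in HepLPC against 124 and 75.1 CPM in NPC_LPC. The groups did not overlap, and the mean was 2.94-fold higher in HepLPC (log2 fold change of 1.56 with SE 0.35, edgeR adjusted p = 0.099). DESeq2 called it with an adjusted p of 0.00115 and edgeR without a filter with 0.0433, while edgeR values without 1 library lay between 0.07 and 0.264. Only 3 other genes within 1 Mb were tested, and all had fold changes above 0. Ddc (11814101 to 11898144), the aromatic amino acid decarboxylase, which is imprinted in the developing heart, was at 26.0 and 15.4 CPM in HepLPC and had no count in NPC_LPC, at least 132-fold higher against a floor of 3 counts per library (edgeR adjusted p = 0.0413). Cobl (12236676 to 12465022), an actin nucleator reported as imprinted in some tissues, reached 67.2 and 50.9 CPM in HepLPC against 2.08 and 2.13 CPM in NPC_LPC (log2 fold change of 4.80 with SE 0.34, edgeR adjusted p = 0.0265). Fignl1, the third of these neighbours, had a log2 fold change of 0.75 and an edgeR adjusted p of 0.451. Leaving out either HepLPC library ended the calls of Ddc and Cobl, as it did those of all genes. The median log2 fold change of the 734 genes on chromosome 11 with a mean of at least 10 CPM was 0.06.

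**Figure D2:**
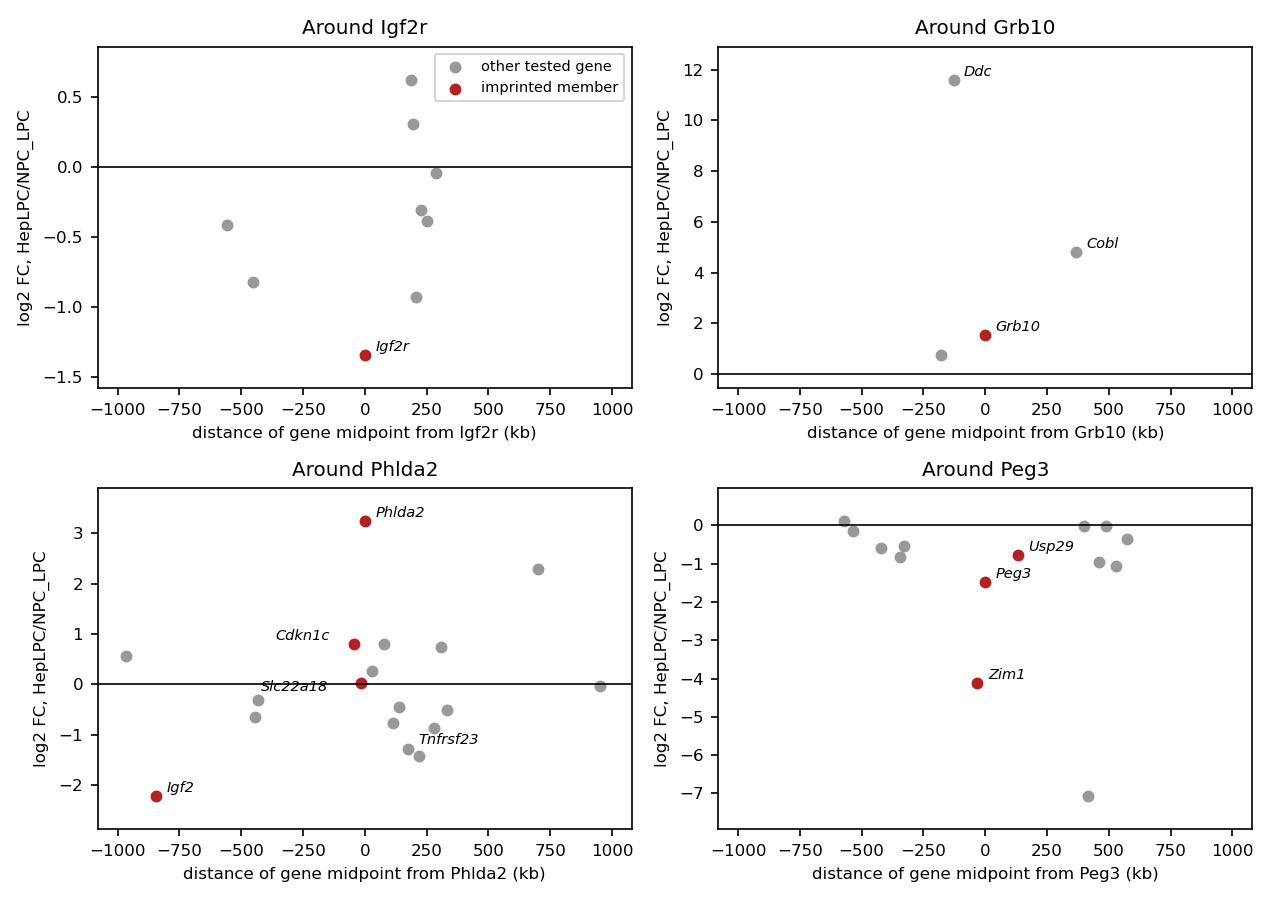
Log2 fold change, HepLPC over NPC_LPC, of tested genes within 1 Mb of 4 imprinted genes, against the distance of gene midpoints in kb; red points are imprinted members and grey points other genes, and the vertical axes differ. Igf2r is the lowest gene of its region, Phlda2 the highest of its own, and all 4 genes around and including Grb10 lie above 0.

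**Figure D3:**
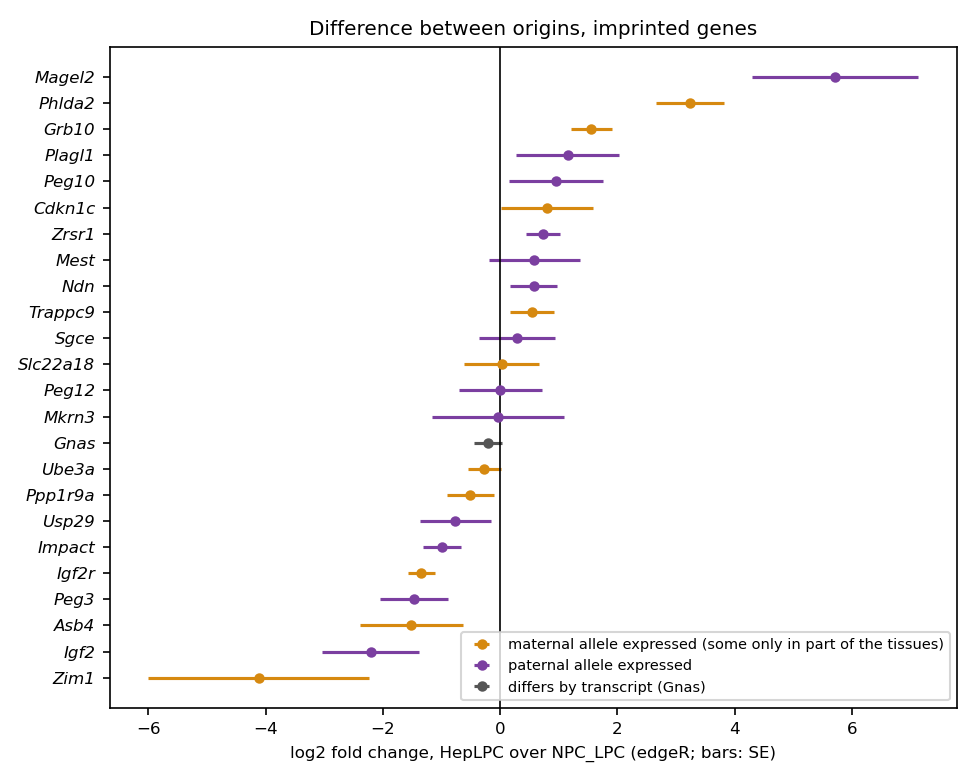
Log2 fold change of each tested imprinted gene, HepLPC over NPC_LPC, with its standard error (bars), coloured by the parental allele that is known to be expressed. Values run from -4.12 for Zim1 to 5.71 for Magel2, and genes of either parental kind lie on both sides of 0.

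The cluster of chromosome 7 that corresponds to the human Prader-Willi and Angelman region was read unevenly. Ndn, which encodes necdin, a protein of the MAGE family, reached 28.5 and 27.2 CPM in HepLPC against 24.9 and 12.6 CPM in NPC_LPC (log2 fold change of 0.57 with SE 0.40, edgeR adjusted p = 0.447). For Ndn the value was 1.17 without NPC_LPC replicate 1 and 0.16 without replicate 2. Magel2, a relative of Ndn that lies beside it (62376979 to 62381640), had 49 and 13 counts in HepLPC and 1 and 0 in NPC_LPC. Both NPC_LPC libraries were under 3 counts, and the ratio of the summed counts per library total was 66.6, with an exact 95% interval for counting error of 11.5 to 2670. edgeR gave an adjusted p of 0.114 and DESeq2 0.0352. Mkrn3, a ring finger gene of the same group, reached 2.05 and 0.451 CPM in HepLPC against 0.384 and 2.18 CPM in NPC_LPC, while Peg12 had 3.83 and 1.35 against 2.8 and 2.38 CPM. Neither separated the origins. No other tested gene that is not a member lay within 1 Mb of Ndn. Ube3a, a ubiquitin ligase that is imprinted in neurons and read from both alleles elsewhere, was close to level at 97.0 and 64.8 CPM in HepLPC against 102 and 93.0 CPM in NPC_LPC (log2 fold change of -0.27 with SE 0.28).

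For Snrpn and the gene inside it the deposited counts and FPKM part ways. Snrpn, a splicing protein gene, had 0 and 0 counts in HepLPC and 1 and 0 in NPC_LPC, and its FPKM was at most 6.46e-06. Snurf (59982495 to 60005199), whose span lies inside Snrpn (59982495 to 60450177) and whose exons share 216 bases with it on the same strand in GENCODE M21, had 0 counts in all 4 libraries. Its FPKM values were 11.6 and 7.16 in HepLPC and 9.37 and 5.21 in NPC_LPC. Snurf was thus listed well above 0 by FPKM in every library and at 0 by count, and a read in shared exons cannot be assigned to one of them. Exons of Mest share 912 bases with Copg2 on the opposite strand, or 23.1% of its exon length, and those of Zrsr1 share 412 bases with Commd1. The library kit keeps the strand, but the strand setting of the counting is not given in the sources used here. Counts of Mest and Zrsr1 can therefore include reads of these partners or lack reads in the shared bases.

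In the Dlk1 and Meg3 cluster of chromosome 12, which is active in fetal liver, the members with a row had almost no reads. Dlk1, a membrane protein of hepatoblasts, had 1 count in NPC_LPC replicate 2 and none in the other libraries, and Rtl1, a gene derived from a retrotransposon, had none in any. Dio3, a thyroid hormone deiodinase gene of the same imprinted domain that is no member and was picked out after its values were seen, had 46 and 227 counts in HepLPC and 64 and 152 in NPC_LPC. The groups of Dio3 overlapped. The maternally expressed RNAs Meg3, Rian and Mirg of this cluster and Peg13 of chromosome 15 were not analysed here. A count of 0 allows a level of up to 0.149 to 0.169 CPM per library, counting error only. All 7 members without a row are long non-coding RNAs in RefSeq, and 0.391% of the rows of the tables are of that class.

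In the Peg10 cluster of chromosome 6 replicates varied, and the edgeR test called no member. Peg10, a retrotransposon-derived gene needed in the placenta, reached 10.2 and 9.74 CPM in HepLPC against 1.54 and 8.81 CPM in NPC_LPC, with no overlap between the groups but a wide gap within NPC_LPC. Its log2 fold change of 0.94 was 0.20 without NPC_LPC replicate 1 and 2.69 without replicate 2. Sgce, the epsilon-sarcoglycan gene that starts next to Peg10 on the other strand, reached 8.55 and 25.2 CPM in HepLPC against 8.5 and 19.1 CPM in NPC_LPC, higher in the replicates numbered 2 of both groups. Ppp1r9a, which encodes neurabin, was at 23.4 and 12.2 CPM against 26.9 and 23.9 CPM. Asb4 had 4 and 9 counts in HepLPC and 14 and 27 in NPC_LPC (log2 fold change of -1.52 with SE 0.88). Both Ppp1r9a and Asb4 were lower in HepLPC without overlap, where 28.6% of all tested genes were. None of these 4 had an edgeR adjusted p under 0.366.

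Of the genes outside these clusters, Impact and Zrsr1 had groups that did not overlap and an unadjusted p under 0.05. Impact, a regulator of the GCN2 stress kinase (chromosome 18), reached 46.8 and 37.5 CPM in HepLPC against 105 and 63.9 CPM in NPC_LPC. The groups did not overlap (log2 fold change of -1.0 with SE 0.32, edgeR adjusted p = 0.167, DESeq2 adjusted p = 0.0698). Zrsr1, a splicing factor retrogene inside Commd1, reached 29.4 and 27.8 CPM in HepLPC against 18.9 and 15.5 CPM in NPC_LPC (log2 fold change of 0.74 with SE 0.29, edgeR adjusted p = 0.224). Gnas, which encodes the stimulatory G protein alpha subunit along with imprinted variants that a gene count does not separate, was nearly level at 704 and 701 CPM against 772 and 853 CPM (log2 fold change of -0.21 with SE 0.25). Plagl1, a zinc finger regulator of other imprinted genes, reached 6.72 and 2.82 CPM in HepLPC against 3.51 and 0.792 CPM in NPC_LPC. Mest, a member of the hydrolase family, was at 6.39 and 2.31 CPM against 4.22 and 1.58 CPM. In both Plagl1 and Mest the groups overlapped and the library numbered 1 was the higher one in each group. Trappc9, a trafficking protein gene on chromosome 15, reached 27.3 and 51.6 CPM in HepLPC against 25.3 and 28.9 CPM in NPC_LPC (log2 fold change of 0.54 with SE 0.37). The median over the 369 genes of chromosome 15 with a mean of at least 10 CPM was 0.69, so Trappc9 did not stand above its chromosome. That median was itself high, since those of the other chromosomes with a tested member lay between -0.02 and 0.19. The cause was not tested. Trappc9 did lie above the median of 0.09 of the 6 other tested genes within 1 Mb. Without HepLPC replicate 2 the Trappc9 value was 0.01. Nap1l5, Kcnk9 and Rtl1 had no count in any library, Nnat had 1 in all, and Zdbf2 had 10 and 3 counts in HepLPC and 0 and 3 in NPC_LPC.

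Replicates of one origin differed more often in the imprinted genes than in all tested genes, but a larger share of the members had low counts. A mean of at least 10 CPM was reached by 11 of the 24 members and by 9115 of the 12332 tested genes. The shares over all tested genes are therefore not matched to the members in level. The ratio between replicates, taken on counts plus 1, was over 2-fold for 10 of the 24 members in HepLPC and 8 in NPC_LPC, or 41.7% and 33.3%, where 15.4% and 15.3% of all tested genes were. Among genes with a mean of at least 10 CPM it was over 2-fold for 2 of 11 members in HepLPC (Peg3 and Sgce) and 1 in NPC_LPC (Sgce), beside 8.75% and 8.46% of all such genes. Zim1, Peg10 and Mkrn3 differed most in NPC_LPC. These are descriptions with no test.

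**Figure D4:**
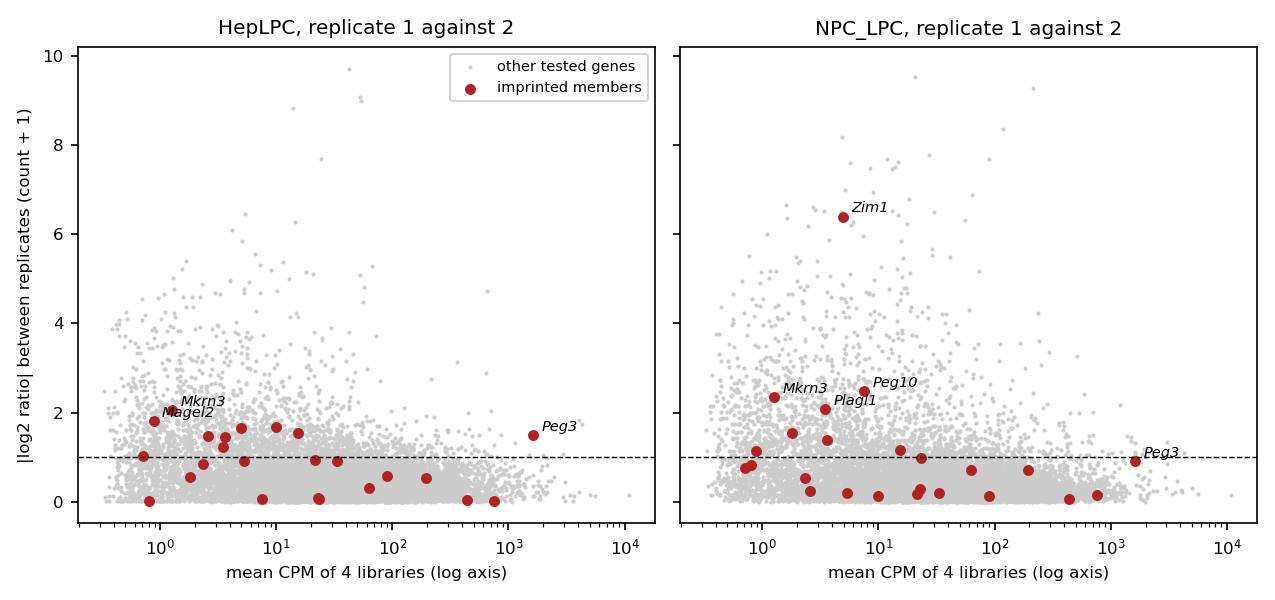
Size of the log2 ratio between the 2 replicates of HepLPC (left) and of NPC_LPC (right), on counts plus 1, against the mean CPM of the 4 libraries (log axis); red points are imprinted members, grey points the other tested genes, and the dashed line marks a 2-fold ratio. Members with a mean under 10 CPM reach far above the line, and Zim1 in NPC_LPC lies highest.

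Most genes listed for the machinery that sets and keeps imprints were read in both kinds of cell. Of 24 listed genes 21 were tested, with 11 fold changes above 0, 10 below and a median of 0.02. The other 3 had few or no reads: Dnmt3l, a cofactor of methylation in germ cells, and Ctcfl, a testis relative of Ctcf, had 0 counts in all libraries, and Dppa3, which protects imprints in the zygote, had 2 in HepLPC replicate 1 and 2 in NPC_LPC replicate 2. edgeR called 0, and 2 had an unadjusted p under 0.05, where 21.9% of all tested genes did. DESeq2 called the same number, both higher in HepLPC, where 5.81% of all genes were. Hells, a chromatin remodeller that assists DNA methylation, reached 251 and 176 CPM in HepLPC against 87.8 and 85.7 CPM in NPC_LPC (log2 fold change of 1.30 with SE 0.27, edgeR adjusted p = 0.0862, DESeq2 adjusted p = 8.41e-04). Ezh2, the catalytic subunit of polycomb complex PRC2, was at 259 and 162 CPM against 72.1 and 97.8 CPM (edgeR adjusted p = 0.114, DESeq2 adjusted p = 0.00552). Arid4b, a chromatin protein, was at 77.1 and 53.3 CPM against 105 and 91.5 CPM (edgeR adjusted p = 0.272). Dnmt1, the maintenance methyltransferase, and Zfp57, which binds methylated control regions, are named for their role and were chosen after their values were seen. Dnmt1 reached 392 and 190 CPM in HepLPC against 147 and 195 CPM in NPC_LPC, and Zfp57 had 44.7 and 46.0 CPM against 71.1 and 45.9 CPM, with overlapping groups in both.

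Markers of other cell types were summed because several imprinted genes are abundant in stromal or neural cells. The 2 leading markers of each list are given in the order of their mean FPKM, and those at or near 0 were picked out after their values were seen. The 10 markers of stellate cells and fibroblasts summed to 6.39 and 4.17 CPM in HepLPC and 6.09 and 17.2 CPM in NPC_LPC, with Col1a1 and Dcn highest and Lrat and Lum at 0 in all libraries. The 4 neural and neuroendocrine markers summed to between 4.83 and 14.6 CPM over the libraries, with Tubb3 and Map2 highest. The 6 endothelial markers summed to at most 7.44 CPM, most of it Kdr, with Cdh5 next. The 5 mesothelial markers summed to 199 and 788 CPM in HepLPC and 579 and 232 CPM in NPC_LPC, nearly all Msln, with Wt1 next. The 6 markers of Kupffer cells and leukocytes summed to between 52.4 and 235 CPM, most of it Cd14 and Cd68, while Clec4f was at 0 and Adgre1 had 1 count in all. Hepatocyte markers, 8 in number, summed to 285 and 294 CPM in HepLPC and to 65.6 and 77.5 CPM in NPC_LPC. Fah and Hnf4a led them, and most of the difference in the sum was Hnf4a, at 235 and 249 against 27.4 and 49.8 CPM. Fah was at 40.9 and 41.7 against 37.8 and 27.4 CPM. Cyp2e1 was at 0 in all libraries and Alb was at or under 2.28 CPM. The 6 biliary markers summed to between 2214 and 9504 CPM, led by Spp1 and Krt19. The stellate and fibroblast sum was highest in NPC_LPC replicate 2, the library with most Zim1. Acta2, Col1a2 and Col3a1, picked out after their values were seen, had 46, 28 and 21 counts there and 0 in the other 3 libraries. Col1a1 was also highest there, at 238 counts. Des and Rgs5 of the same list were lowest there, with 3 and 4 counts. Their counts elsewhere were 13 to 24 and 17 to 22, and Dcn had 6 there beside 26 in NPC_LPC replicate 1. edgeR called 0 markers in these lists. An unadjusted p under 0.05 was found only for 3 of 4 tested hepatocyte and 4 of 6 tested biliary markers. Of all tested genes 21.9% had one, and DESeq2 called 12.3%. DESeq2 called 2 hepatocyte markers higher in HepLPC, and of the biliary markers 1 higher and 1 lower. The part of the other cell types in the values of the imprinted genes was not tested.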

How the data were processed

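RNA of 4 libraries was sequenced as stranded mRNA libraries, per the labels' protocols. The submitters' processing notes name the build mm10 and, without their versions or order, HTSeq, Cufflinks, HISAT2, Trimmomatic and DESeq. The gene annotation is not given there. Per the file headers, the authors deposited read counts and FPKM per gene symbol.

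Counts were tested with edgeR 4.0.16 (quasi-likelihood, TMM, filterByExpr) in R 4.3.3, with group as the only term and two-sided p-values adjusted over all tested genes; the standard error was derived from the F statistic. Alternatives used DESeq2 1.42.0, limma 3.58.1, other scaling factors and filters, FPKM, a replicate block and leaving out each library. Positions are RefSeq's (GRCm38.p6), matched by symbol; exon overlaps are from GENCODE M21. Intervals and floors of 3 counts hold for counting error only, because PCR copies are not independent molecules.

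The members and lists were chosen with earlier results of these data known. Every member with a row is accounted for. Of the lists, genes past the threshold or the 3 with the smallest p are named, and of marker lists the 2 most abundant. Any other gene was picked with its values in view.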

Additional observations from a re-analysis of the deposited data

How the results depend on the processing

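The number of genes called by edgeR, 53 with TMM and filterByExpr, was 593 without a filter on low counts, 80 with a mean CPM of at least 5, 1517 with DESeq2, 5 with limma-voom, 111 with limma on log2(FPKM + 1) at a mean FPKM of at least 0.5, 0 without that filter, and 0 to 377 when 1 library was left out. Of the imprinted genes, 0 in the main test, these settings called 3 without a filter (Igf2r, Grb10 and Phlda2), 5 with DESeq2, 1 (Phlda2) with log2(FPKM + 1) and 1 (Phlda2) with log2(FPKM + 0.1), both at a mean FPKM of at least 0.5, and 0 to 1 without 1 library. Of the other fixed lists, 2 genes in the main test, they called 8 without a filter, 16 with DESeq2, 0 with limma-voom, 0 with unfiltered FPKM, and 0 to 6 without 1 library. With the replicate number as a block edgeR called 136 genes and 0 imprinted genes. The labels give no origin for the shared numbers, and across genes the difference between replicates 1 and 2 in HepLPC had r = -0.034 with that in NPC_LPC, so the numbers were not taken as pairs. The median log2 fold change of the imprinted genes ran from -0.32, without HepLPC replicate 1, to 0.17, without NPC_LPC replicate 1. Each move was smaller than 0.549, the SD within groups of the library median log2 CPM of these genes. That SD is wide beside these medians, so it is a weak check. Genes near 0 changed sign. Mkrn3 was 0.038 with limma-voom and 0.049 with the replicate block. Peg12 was -0.17 with limma-voom, -0.089 with log2(FPKM + 1) with and without the filter, -0.24 with log2(FPKM + 0.1) and -0.17 with the replicate block. Slc22a18 was -0.0038 with limma-voom and -0.0086 with the replicate block. Without 1 library, log2 fold changes ran from -0.32 to 1.47 for Mest, -1.48 to 1.69 for Mkrn3, -0.92 to 0.57 for Peg12, -0.69 to 0.99 for Sgce, -0.47 to 0.41 for Slc22a18 and -5.31 to 1.65 for Zim1. A group left with 1 library is assumed to vary like the other. The cause of these changes was not tested. The depth of a library allows up to 0.149 to 0.169 CPM for a count of 0.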

Other observations

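A further 47 genes reported as imprinted in mouse were followed as a list. Of these, 40 had a row and 24 were tested. The log2 fold change was above 0 for 8 and below for 16, with a median of -0.21 beside -0.003 over all tested genes. edgeR called 2, Cobl and Ddc, both higher in HepLPC, where 0.43% of all tested genes were called in either direction. DESeq2 called 2 higher, where 5.81% of all genes were, and 2 lower, where 6.5% were. Tnfrsf23, a decoy death receptor gene at the edge of the Kcnq1 cluster, reached 214 and 130 CPM in HepLPC against 434 and 394 CPM in NPC_LPC (log2 fold change of -1.27 with SE 0.32, edgeR adjusted p = 0.114, DESeq2 adjusted p = 0.00482), opposite in sign to Phlda2 174 kb away. Mcts2, a paternally expressed retrogene in an intron of H13, was chosen after its values were seen. It reached 13.2 and 15.3 CPM in HepLPC against 9.82 and 4.06 CPM in NPC_LPC (log2 fold change of 1.03 with SE 0.52, edgeR adjusted p = 0.302), while its host H13 was at 188 and 234 CPM against 191 and 275 CPM.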
